A study of Drosophila melanogaster with 2 samples.

Results

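Divergent promoter peaks on the autosomes were defined here as dmrt93B-GFP ChIP-seq summits, off the X chromosome, with an annotated transcription start on the plus strand and another on the minus strand no more than 500 bp away. The rule used positions only and no measured strength. It found 472 summits among the 4159 of the optimal peak list, which is 11.3% of that list. They made up 14.3% of the 3301 autosomal summits. Of the 1323 autosomal summits near any start, 35.7% were divergent (95% Wilson interval 33.1 to 38.3). The other 851 had starts on a single strand and are called unidirectional promoter peaks below, and 1978 autosomal summits lay outside promoters.

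Both libraries came from whole wandering larvae of the third instar of Drosophila melanogaster, males and females pooled, of a transgenic line in which GFP is joined to the C-terminal end of dmrt93B. They are 2 biological replicates of 1 group, with no untreated or untagged group to compare with. The age of the larvae is given as unknown, and the promoter that drives the transgene is not given in the sources used here. Signal from all larval tissues is mixed in each library. Their free-text descriptions speak of an input control, against the antibody label dmrt93B that was used for grouping. All values are therefore those of libraries labelled as dmrt93B ChIP. Read depth is unknown, so the intervals on shares cover counting error only. Peaks of a single pair of libraries are not independent replicates, and a test over peaks compares classes of peaks in these libraries.

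A divergent promoter is a stretch of DNA from which a pair of neighbouring genes is transcribed in opposite directions, with the core promoters back to back. In the compact fly genome such pairs are common, and many of their genes work in every cell, for example in translation or transcription. Between the starts usually lies a nucleosome-depleted stretch that is open to transcription factors. dmrt93B belongs to the DM-domain family of transcription factors, whose best known fly member, Doublesex, controls sexual differentiation.

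The sequences between the starts of 8 pairs are shown because they carry the geometry described below. The first 5 pairs had strong summits near the middle, RpS27/Nup37 had its summit beside the ribosomal gene, and the last 2 pairs had no entry in the replicate 1 list. Pairs are written as the minus-strand gene before the plus-strand gene. Each sequence is the plus strand of the RefSeq Release 6 genome in dm6 coordinates, 5′ to 3′, from the base after the minus-strand start to the base before the plus-strand start, and overlaps no annotated exon. Capitals mark the 31 bases centred on the summit.
Tcs5/CHMP2B (chr3L:5139396-5139618): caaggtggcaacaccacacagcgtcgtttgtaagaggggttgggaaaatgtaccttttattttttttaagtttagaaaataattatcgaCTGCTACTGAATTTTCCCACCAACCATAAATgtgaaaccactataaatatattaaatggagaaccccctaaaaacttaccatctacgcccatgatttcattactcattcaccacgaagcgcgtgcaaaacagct
Art3/mRpS10 (chr3R:15229409-15229664): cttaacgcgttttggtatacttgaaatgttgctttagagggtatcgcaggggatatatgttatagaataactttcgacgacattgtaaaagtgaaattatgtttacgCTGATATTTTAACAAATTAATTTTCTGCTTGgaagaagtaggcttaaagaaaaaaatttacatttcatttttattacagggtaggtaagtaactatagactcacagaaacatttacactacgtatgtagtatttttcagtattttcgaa
Atat/Shc (chr3L:9426759-9427009): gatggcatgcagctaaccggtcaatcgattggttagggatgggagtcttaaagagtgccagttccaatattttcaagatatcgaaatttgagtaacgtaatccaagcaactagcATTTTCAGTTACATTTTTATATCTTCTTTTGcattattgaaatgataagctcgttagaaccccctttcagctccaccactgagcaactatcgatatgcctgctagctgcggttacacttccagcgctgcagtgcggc
CG7601/CIA30 (chr3R:29736746-29736964): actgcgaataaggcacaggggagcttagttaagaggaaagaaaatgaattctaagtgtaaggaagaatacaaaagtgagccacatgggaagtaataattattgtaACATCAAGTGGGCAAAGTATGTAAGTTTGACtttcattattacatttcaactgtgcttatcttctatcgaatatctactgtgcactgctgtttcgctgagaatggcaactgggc
Lon/PIG-F (chr3L:19612200-19612454): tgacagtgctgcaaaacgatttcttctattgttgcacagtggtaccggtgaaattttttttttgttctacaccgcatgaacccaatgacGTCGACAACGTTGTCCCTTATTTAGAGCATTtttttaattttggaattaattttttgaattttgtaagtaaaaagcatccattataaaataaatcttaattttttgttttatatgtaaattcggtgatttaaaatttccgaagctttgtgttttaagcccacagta
RpS27/Nup37 (chr3R:25247515-25247657): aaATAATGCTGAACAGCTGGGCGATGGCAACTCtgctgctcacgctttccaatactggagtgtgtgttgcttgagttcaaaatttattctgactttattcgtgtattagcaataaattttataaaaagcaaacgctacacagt
Kmn2/CG2698 (chr3R:8001310-8001561): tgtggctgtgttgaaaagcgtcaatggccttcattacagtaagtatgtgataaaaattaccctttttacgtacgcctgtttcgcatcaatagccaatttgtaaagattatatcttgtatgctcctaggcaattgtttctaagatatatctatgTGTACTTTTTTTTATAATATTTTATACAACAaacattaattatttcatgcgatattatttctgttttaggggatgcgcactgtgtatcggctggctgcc
Cp190/CG4338 (chr3R:15275242-15275521): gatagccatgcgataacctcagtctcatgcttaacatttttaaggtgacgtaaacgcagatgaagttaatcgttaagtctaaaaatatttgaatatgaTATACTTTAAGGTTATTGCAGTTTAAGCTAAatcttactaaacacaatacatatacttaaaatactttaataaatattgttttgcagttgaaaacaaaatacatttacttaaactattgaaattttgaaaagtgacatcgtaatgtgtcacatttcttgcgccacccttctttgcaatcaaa
Tcs5 encodes a kinase of the complex that modifies tRNA, and CHMP2B a subunit of the ESCRT membrane-remodelling machinery. In Tcs5/CHMP2B the summit fell on base 105 of 223. In Art3/mRpS10, a pair of an arginine methyltransferase gene and a mitochondrial ribosomal gene, it fell on base 123 of 256. In RpS27/Nup37 it fell on base 18 of 143. GC content was 43.0% in Atat/Shc, the highest of the 8 sequences, and 28.9% in Cp190/CG4338, the lowest. The Atat/Shc sequence held a DRE, the letters TATCGATA bound by the fly factor Dref, at bases 202 to 209, with its centre 75.5 bp from the summit. The only DM-domain site found in the 8 sequences, ACATTGT, covered bases 80 to 86 of Art3/mRpS10, with its centre 40 bp from the summit. The letters TATAAA, in either direction, covered bases 164 to 169 and 174 to 179 of Kmn2/CG2698 and lay within 10 bp of its summit.

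The summits belonged to 439 distinct pairs of nearest genes, with 877 genes in all. Both nearest starts were those of protein-coding genes at 423 summits, and at 44 summits a single partner was a non-coding RNA gene. Both partners were non-coding at 3 summits and a tRNA gene took part at 2. By arm, the divergent share of promoter peaks was 34.9% on 2L, 31.0% on 2R, 37.4% on 3L and 38.5% on 3R, with overlapping Wilson intervals. On chromosome 4 it was 0 of 4 promoter peaks, which allows a share of up to 49.0% (upper Wilson bound).

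The starts pointed away from each other at 450 summits (95.3%) and toward each other at 22. Over all 472, the median spacing, the plus-strand start minus the minus-strand start, was 301 bp (lower and upper quartile 220 and 419). Among the 450 it was 309 bp, with a range of 6 to 784 bp. Spacings were put into classes of 100 bp, each with its upper bound included, and a last class of 600 to 1000 bp. The most common classes were 200 to 300 bp with 128 summits and 300 to 400 bp with 104. In the strongest peaks of each replicate alone, the median was 289.5 bp in replicate 1 and 288.5 bp in replicate 2. The rule bounds the spacing at 1000 bp.

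The closest starts were those of asRNA:CR42254 and BEAF-32, a gene for a chromatin boundary protein, 6 bp apart. SerRS and CG17260 followed at 8 bp, and E(z), the Polycomb methyltransferase gene, lay 16 bp from Cnep1r2. At the other end stood Jheh3/CG43069 with 784 bp and the pair of lncRNA:CR43644 and the Notch target E(spl)m3-HLH with 747 bp. The signal, the strength that the authors' caller gave a peak, was 126 at the BEAF-32 summit and 709 at E(z)/Cnep1r2. It was 166 at Jheh3/CG43069 and 700 at E(spl)m3-HLH, so strong and weak summits occurred at both ends of the range of spacing.

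Most summits stood between the starts. This held for 394 of the 472 summits (83.5%), and for 388 of the 450 with starts pointing away (86.2%). The share was 25% of 40 summits where the starts were at most 100 bp apart, 60.0% of 45 at 100 to 200 bp, 93.8% of 128 at 200 to 300 bp and 94.2% of 104 at 300 to 400 bp. All 74 summits at 400 to 500 bp lay between. Beyond 500 bp the rule itself places a summit between the starts. Below 500 bp, the part of the allowed positions that lies between the starts also grows with spacing. The rise across the classes is therefore partly set by the rule. The 62 summits outside the interval lay a median of 53 bp past the nearer start.

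Summits were spread around the middle of the interval. Because both starts must lie within 500 bp, the rule limits the distance from the midpoint equally on both sides. This limit is tighter at larger spacing, and its part in the central position was not tested. Among the 450 summits the median distance from the midpoint was 57.5 bp. The signed median was 5.75 bp toward the plus-strand gene (quartiles -56 and 59), and the nearer start was on the plus strand at 53.0% of the 472 summits (95% Wilson interval 48.5 to 57.4). Of the 450 summits 321 (71.3%) lay within 100 bp of the midpoint. Expressed along the interval from the minus-strand start, the 388 summits inside it had a median position of 52.6% (quartiles 34.8 and 67.7). The nearer start was a median of 99 bp away and the farther start 220.5 bp.

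**Figure D1:**
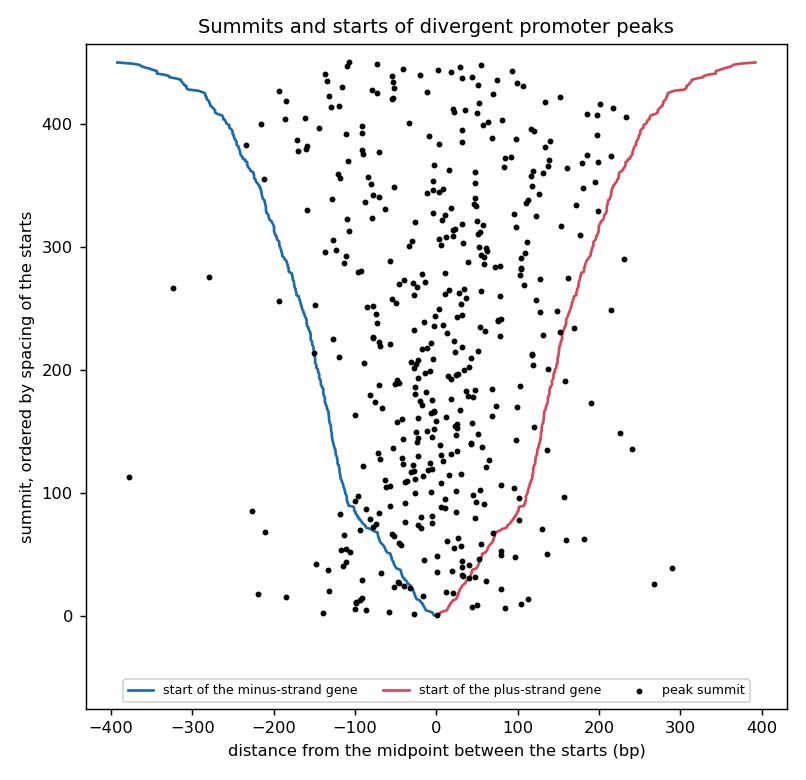
Each row is 1 of the 450 summits whose starts point away from each other, ordered by spacing, with the summit (point) and both starts (lines) plotted by distance in bp from the midpoint of the starts. Summits spread around the middle of the interval, with a median distance of 57.5 bp from the midpoint, and lie outside it mainly where the starts are at most 200 bp apart. The rule itself limits the distance from the midpoint, more tightly at larger spacing.

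The strongest divergent summit stood at Chro/Ssl1. Chro encodes Chromator, a protein of decondensed chromosome interbands and the spindle, and Ssl1 a subunit of the transcription factor TFIIH. The signal of this summit was 2256 and it ranked 10 in the optimal list, 10 in replicate 1 and 10 in replicate 2. The summit lay 95 bp inside Chro and not between the starts. Tcs5/CHMP2B ranked 17, 20 and 18 in the same order of lists. Both regions kept near-identical places in the replicates, but they were picked for strong signal and presence in both top lists.

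The 20 strongest divergent summits found among the top peaks of both replicates held genes of several lists. Mitochondrial ribosomal genes took part at Art3/mRpS10, ranked 18 in both the optimal and the replicate 1 list and 21 in replicate 2, at mRpS23/CenG1A and at mRpL23/CG9004. At Atat/Shc, a tubulin acetyltransferase gene beside an adaptor gene of receptor tyrosine kinase signalling, the ranks were 17 in replicate 1 and 31 in replicate 2. Translation was represented by eIF4EHP/CG18428, with ranks 33 and 36, and by eIF6/asRNA:CR45928, with ranks 37 and 59. Lon/PIG-F, a mitochondrial protease gene beside a gene of GPI-anchor synthesis, ranked 60 and 66. Other pairs of this group were Pdrg1/Pal1, CG3437/CG3552, CG13390/CG17294, Pex11ab/CG8320, CG7601/CIA30, Hrd3/PTPMT1, Fbw5/CG9147 and CG5757/CG5098, besides RpS27/Nup37 and Ripalpha/RpL7 described with the ribosomal genes. All 20 had a rank of 97 or better in replicate 1 and of 87 or better in replicate 2. Such high ranks follow in part from the rule that picked these summits.

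Divergent promoter peaks were strong on the whole. Their median signal was 293 (quartiles 175 and 520), against 236 for unidirectional promoter peaks and 194 for autosomal peaks outside promoters. Of the 472, 195 (41.3%) belonged to the strongest 25% of the optimal list, its top 1040 peaks, where 24.8% of all autosomal peaks belonged. Of the 851 unidirectional peaks 263 did (30.9%), a difference with an odds ratio of 1.57 (two-sided Fisher's exact test, p = 0.00018). The replicates differed in size here. With the top peaks of replicate 1 alone the shares were 49.1% and 31.7%, and with those of replicate 2 alone 30.3% and 27.6%, where the difference did not pass the test (odds ratio 1.14, exact p = 0.265).

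Signal was higher where the starts were close. Its median was 419 at a spacing of 1 to 100 bp, 331 at 100 to 200 bp, 383 at 200 to 300 bp and 319 at 300 to 400 bp. It was 207 at 400 to 500 bp, 192 at 500 to 600 bp and 203 beyond. The share of summits in the strongest 25% of the list went from 57.5% in the first class to 25% at 500 to 600 bp and was 34.8% beyond, the last on 23 summits. No test was made across the spacing classes. At the edge of the rule, the 19 summits whose farther start was over 450 bp away had a median signal of 225, and the 16 unidirectional ones whose opposite start lay just outside, at up to 550 bp, had 233.

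Genes with a divergent neighbour carried a peak more often than others. Over all 15157 autosomal genes, 11.1% had an optimal summit no more than 500 bp from one of their starts. The share was 1049 of 5330 genes (19.7%) with an opposite-strand start within 1000 bp upstream and 636 of 9827 (6.47%) without one, an odds ratio of 3.54 (two-sided Fisher's exact test, p = 9.38e-128). A single summit can serve both genes of a pair, so pairs were also counted once, a choice made after the data were seen. Of 2551 annotated divergent pairs, 429 (16.8%) had a summit within 250 bp of the midpoint of the starts. A window of the same length, centred 150 bp upstream of the starts, held a summit in 502 of the 9827 other genes (5.11%), an odds ratio of 3.76 (Fisher's exact test, p = 2.44e-74). The window of a pair can hold the promoters of both genes, whereas the other window is set on those of a single gene. This odds ratio does not allow for that and cannot give the part of divergence alone. Whether open chromatin differed between these classes of genes was not measured.

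The share of annotated pairs with a peak was highest at intermediate spacing. Summits stood at 11.7% of 401 pairs at 1 to 100 bp, 11.7% of 384 at 100 to 200 bp, 23.5% of 510 at 200 to 300 bp, 24.6% of 362 at 300 to 400 bp and 22.0% of 255 at 400 to 500 bp. The share was 15.1% at 500 to 600 bp and 9.45% beyond, classes in which the window around the midpoint leaves out the starts themselves. In replicate 1 the class of 200 to 300 bp was highest with 17.6%, and in replicate 2 the same class was highest with 38.0%. The median spacing was 302 bp for pairs with a peak and 295 bp for pairs without, a difference that was not tested.

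**Figure D2:**
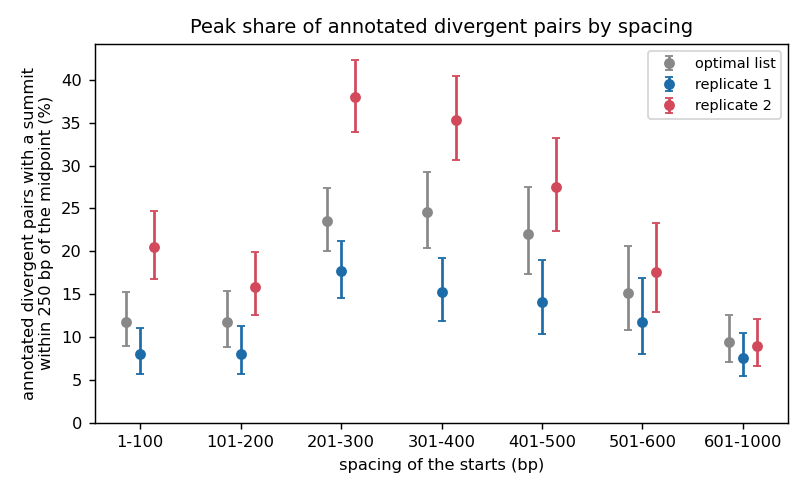
Share (%) of annotated autosomal divergent pairs with a summit within 250 bp of the midpoint, by spacing of the starts in bp, for the optimal list and the equally long top lists of both replicates, with 95% Wilson intervals. In each list the share is highest in one of the classes from 200 to 400 bp, at 24.6% in the optimal list, 17.6% in replicate 1 and 38.0% in replicate 2.

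Replicate 1 lacked many of the divergent peaks. A summit was taken as present in a replicate when the list held another summit within 200 bp. Of the 472, 284 (60.2%) were present among the 4159 strongest peaks of both replicates, against 67.7% of all autosomal optimal peaks. The share of unidirectional peaks was 584 of 851 (68.6%), an odds ratio of 0.691 (two-sided Fisher's exact test, p = 0.00207). This difference turned with the setting. Counted from the top list of replicate 2 alone, without replicate 1, the odds ratio for presence in the other replicate was 0.459, and from that of replicate 1 alone it was 2.06, both past the threshold (Fisher's exact test, p = 2.76e-14 and p = 3.17e-05). With starts counted to 250 bp only, the odds ratio was 1.09 (exact p = 0.608), and it missed the threshold where presence needed intervals overlapping by 50% of both lengths (odds ratio 0.837, exact p = 0.121).

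In the full lists of 30000 entries the gap was wider. Both held 318 divergent summits (67.4%) and 711 unidirectional ones (83.5%), against 87.2% of all autosomal optimal peaks. The odds ratio was 0.407 (Fisher's exact test, p = 3.67e-11). Of all autosomal optimal peaks each list alone held at least the 87.2% that both held, and of unidirectional ones at least 83.5%. Of the divergent summits, replicate 2 held 470 of the 472 and replicate 1 held 320. RNaseZ/CG12909 was among the 2 without a replicate 2 entry. Where a replicate held the summit, its own summit was close, a median of 11 bp away in replicate 1 and 12 bp in replicate 2.

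Of the 320 summits present in replicate 1, 314 (98.1%) were among its 4159 strongest, and 152 summits had no entry in it. The nearest replicate 1 entry to an absent summit was a median of 7630 bp away, and only 5 had one within 500 bp. In replicate 2, 134 of the 152 (88.2%) were among the 4159 strongest. The median replicate 2 rank was 2052 for the 152 and 1188 for the 318 summits present in both lists. All 152 were picked from the optimal list, so a high place in replicate 2 may follow in part from that choice. Their median optimal signal was lower, at 226 against 352 for those present, and the part of signal in their absence was not tested. Spacing and GC content were close to those of the others, with median spacings of 313 and 298 bp and median GC contents of 28.7% and 30.7%.

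Strong peaks were among those missing. Kmn2/CG2698, which includes a kinetochore gene, had a signal of 1064 and ranked 113 in the optimal list and 136 in replicate 2. Cp190/CG4338, whose Cp190 encodes a protein of insulators and centrosomes, ranked 123 and 174. Mnat9/CG1792 ranked 135 and 169, RpL28/eIF1 182 and 155, and Ns2/POSH 196 and 208. None of these 5 had an entry in the replicate 1 list.

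The optimal list was also split by signal into 4 groups of equal size. In the strongest group 78.5% of divergent and 88.2% of unidirectional peaks had an entry in the full replicate 1 list, and in the weakest 50% and 78.1%. Peaks outside promoters stood at 95.3% and 90.7% in the same groups. These shares were not tested one by one. Seen from the replicates, the divergent share of autosomal promoter peaks was 29.7% of 1103 in the top list of replicate 1 and 41.2% of 1625 in that of replicate 2. Of the divergent peaks in the top list of replicate 1, 86.0% were also among the strongest of replicate 2, against 74.8% of its unidirectional peaks.

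**Figure D3:**
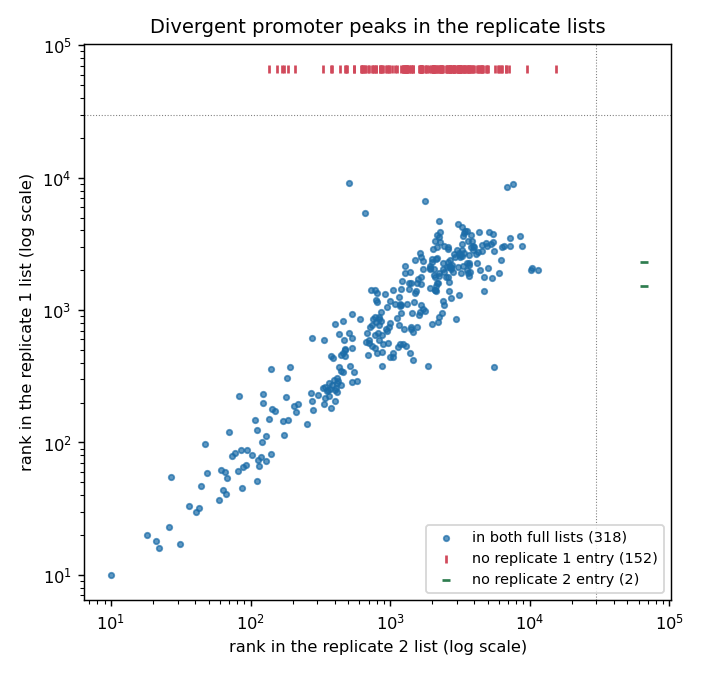
Rank of each divergent promoter peak in the full replicate 2 list (horizontal, log scale) and the full replicate 1 list (vertical, log scale), with marks beyond the dotted limits at 30000 for peaks with no entry in 1 of the lists. Of the 318 peaks in both lists 102 (32.1%) ranked higher in replicate 2, and the 152 without a replicate 1 entry reach up to rank 136 in replicate 2.

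**Figure D4:**
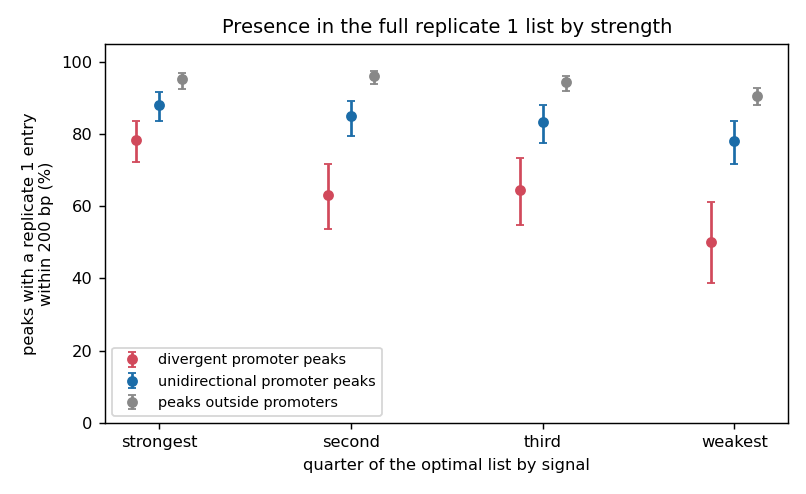
Share (%) of autosomal optimal peaks with an entry within 200 bp in the full replicate 1 list, by signal group of the optimal list (4 groups of equal size) and class of peak, with 95% Wilson intervals. Divergent promoter peaks are lowest in each of the groups, from 78.5% in the strongest to 50% in the weakest.

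Cytosolic ribosomal protein genes, which encode the proteins of the translating ribosome, were the list most often found at divergent summits among lists with over 10 genes beside an opposite start. Of 72 autosomal genes on the list, 44 had an opposite start upstream, and 27 of these 44 (61.4%) were a nearest gene of a divergent summit. The same share was 16.1% over all autosomal genes with an opposite start. It was 17.7% over the protein-coding ones, from which the lists set by symbol were drawn. Peaks at ribosomal genes were not limited to divergent summits: 52 of the 72 had an optimal summit within 500 bp of a start, and 28 of the 72 were a nearest gene of a divergent one. Over all autosomal genes 1685 of 15157 had a summit that close. For RNA polymerase II, Mediator and general factors, 37.5% of 40 genes with an opposite start were a nearest gene of a divergent summit. By the same measure the share was 30.6% of 49 for mitochondrial ribosomal proteins and 30.0% of 20 for aminoacyl-tRNA synthetases. Nuclear pore genes stood at 35.7% of 14, DNA replication genes at 25% of 12, heat shock genes at 18.2% of 11 and translation factors at 17.4% of 23. Of 3 mitochondrial import genes 1 was found, and of 7 ubiquitin ligase genes none was. Proteasome genes stood at 13.0% of 23, spliceosome genes at 11.1% of 18 and histone genes, many of them in repeated copies, at 1.14% of 88.

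RpS27/Nup37, a ribosomal gene beside a nuclear pore gene, had a signal of 1639 and ranked 55 in replicate 1 and 27 in replicate 2. At Ripalpha/RpL7 the ranks were 97 and 47. RpL32/CG7943 ranked 148 and 107. Each of these 3 stood higher in replicate 2. The same was true of all 19 ribosomal summits present in both full lists, whereas 83 of the 299 other divergent summits present in both (27.8%) stood higher in replicate 2. The other 13 of the 32 ribosomal summits had no replicate 1 entry. Replicate thus moved with these genes, and its part in their strength was not tested.

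Summits at the ribosomal genes mostly lay close to the ribosomal start. In 26 of 32 summits that start was the nearer of the pair, at a median of 54 bp against 222.5 bp for the partner. For mitochondrial ribosomal genes the list gene was nearer in 8 of 16, at medians of 157 and 142 bp. Base composition differed too. Windows reaching 50 bp to either side of the 32 ribosomal summits had a median GC content of 46.0% (quartiles 39.4 and 51.7), and those at the other 440 summits 29.7% (quartiles 24.8 and 36.6). Unidirectional summits at ribosomal genes also had a high median, 43.6% over 27 windows. Values between 22.8% and 60.4% occurred at the 32, so the groups overlapped. The pair Dref/RpL13, named after its values were seen, joins the gene of the DRE-binding factor to a ribosomal gene. It ranked 586 in the optimal list and had no replicate 1 entry.

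Transcription genes were represented by elm/MED27, which includes a Mediator subunit gene and ranked 194 in replicate 1 and 333 in replicate 2, and by 140up/Polr2B, with the gene of an RNA polymerase II subunit, which ranked 274 and 448. CG12321/MED17 ranked 474 and 461, and CG11247/Polr2H ranked 479 and 880. In vesicle traffic, where 25.6% of 43 genes with an opposite start were found, Fur1/Vps33B led with ranks 177 and 278. Among respiratory chain genes, 7 of 37 were found, led by TppII/ND-MWFE with ranks 253 and 373. At 4 pairs besides RpS27/Nup37 both partners belonged to a list. RPA1/Mcm2 joined genes of DNA replication and ranked 475 and 1040. mRpL39/Prosbeta2 ranked 1804 and 3683, Sec3/COX7B 2517 and 3142, and RpL28/eIF1 held 2 summits.

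Few non-coding RNA genes were involved. Of 566 long non-coding RNA genes with an opposite start, 36 (6.36%) were nearest genes of a divergent summit. The 47 summits with such a gene had a median signal of 235, against 308 for summits between protein-coding genes, and 16 of the 47 had starts pointing toward each other. Reg-5/asRNA:CR43257, which pairs a gene with an antisense RNA, ranked 80 in replicate 1 and 103 in replicate 2, and lncRNA:CR44149/brwl ranked 180 and 143. No snoRNA gene of 24 was found, and of 90 tRNA genes with an opposite start 1 was.

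Of the 439 pairs 33 held 2 summits and no pair held more. Their separation had a median of 205 bp, and 26 of the 33 lay between 190 and 220 bp. The smallest gap between neighbouring summits was 199 bp in the optimal list and in both replicate lists, so 199 bp was the closest spacing the lists held. Over the whole optimal list, 213 of the 260 neighbouring summits under 500 bp apart were at most 220 bp apart, so this separation was not particular to divergent pairs. The same interval was listed for both summits in 7 of the 33 pairs. At RpL28/eIF1 the summits were 199 bp apart, with signals of 878 on the RpL28 side and 355 on the eIF1 side. At Hat1/Rpn5, a pair of a histone acetyltransferase gene and a proteasome gene, they were 203 bp apart with signals of 478 and 223.

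The DNA under divergent summits was rich in A and T. The median GC content of the windows reaching 50 bp to either side was 29.7% (quartiles 24.8 and 37.6), against 31.7% at unidirectional summits and 31.7% at summits outside promoters. In the replicate top lists the medians were 29.7% and 31.7% in replicate 1, and 31.7% and 34.7% in replicate 2, divergent before unidirectional. At the midpoints of annotated pairs the median was 27.7% where a summit lay within 250 bp and 33.7% at 2048 pairs with no summit close to either start. The profile around the summit fell from 49.6% at 500 bp to the left to 30.8% at the summit and returned to 48.3% at 500 bp to the right. Around the midpoints of pairs with no peak the profile had the same shape, with 47.2%, 34.5% and 47.4% at these points.

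**Figure D5:**
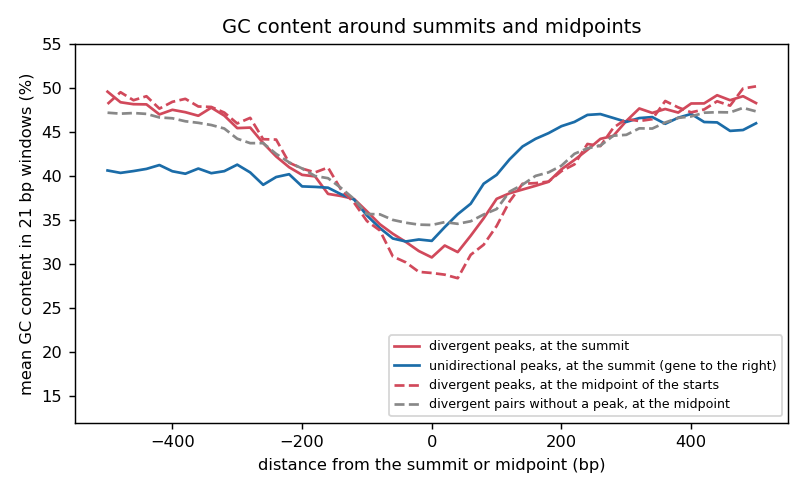
Mean GC content (%) in 21 bp windows by distance in bp from the summit (solid) or the midpoint of the starts (dashed), for divergent and unidirectional promoter peaks and for annotated divergent pairs without a peak. The trough at divergent summits reaches 30.8%, with higher GC content on both sides. Unidirectional peaks, drawn with the gene to the right, are at 40.6% at 500 bp to the left and 46.0% at 500 bp to the right. Divergent pairs without a peak are at 34.5% at the midpoint and at 47.2% and 47.4% at 500 bp to the left and right. The rise on both sides is therefore not particular to divergent summits.

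Of 14 motifs tested for a difference between divergent and unidirectional summits, on both strands of the same windows, 2 passed a Benjamini-Hochberg adjusted threshold of 0.05. The DRE, TATCGATA, was found at 18 divergent summits (3.81%) and 12 unidirectional ones (1.41%), for an odds ratio of 2.77 (Fisher's exact test, adjusted p = 0.046). TATAAA was found at 138 (29.2%) and 187 (22.0%), for an odds ratio of 1.47 (Fisher's exact test, adjusted p = 0.046). Motif 1 was found at 7 and 2 summits (adjusted p = 0.0575, Fisher's exact test). Neither of the passing motifs passed with starts counted to 250 bp, with protein-coding genes only, in the stronger 50% of peaks or with 1 summit per pair, and the DRE also missed the threshold without replicate 2. The DM-domain site ACAATGT, counted together with ACATTGT, stood at 1.69% and 1.53% of summits and did not pass. Windows of the same length around 19478 annotated autosomal starts held a DRE at 3.52%, TATAAA at 15.6%, Motif 1 at 2.25% and the DM-domain site at 1.43%. They held TAATTA at 3.40% and TTAAAA at 14.3%.

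The shares depended on the point chosen. Divergent pairs with no peak had a DRE at 4.25% of midpoints, and pairs with a peak at 3.03%. For TATAAA the shares were 21.4% and 31.0%, for the homeodomain letters TAATTA 10.7% and 17.0%, and for TTAAAA 31.7% and 40.8%, values that moved with the lower GC content at pairs with a peak, whose part in them was not tested. Of the 18 divergent summits with a DRE, 6 were at ribosomal protein genes, which held 32 of the 472 summits. Among them were RpL28/eIF1 and, named after their values were seen, RpS25/CG4820 and RpL34a/Trmt61. Within 500 bp on either side a DRE lay near 99 divergent summits (21%) and 62 unidirectional ones (7.29%), windows in which a divergent summit has promoters on both sides. Around the midpoints of pairs with no peak the share was 18.3%.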

How the data were processed

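Chromatin immunoprecipitation followed by sequencing had been run on 2 biological replicates of dmrt93B-GFP larvae, 1 group, assigned by the antibody label. The authors deposited 1 relaxed peak list of 30000 entries per replicate, a pooled list that was not used, and an optimal list of 4159 peaks past an irreproducible discovery rate threshold, on the dm6 build per the labels. The signal of a peak is the value the authors' caller wrote in the deposited lists. Its scale is not stated, so it served only for ranks and descriptions inside each list. Aligner, peak caller, threshold and depth were not given in the sources used here. The control, the same file for both replicates per the deposited notes, was not analysed here.

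Starts came from Ensembl release 115 without pseudogenes and transposable elements, and sequence from RefSeq Release 6. The nearest start on each strand within 500 bp named a pair. Summits within 200 bp were shared, and the 4159 strongest peaks of each replicate served as lists of equal length. Classes of peaks were compared by two-sided Fisher's exact test, motifs with Benjamini-Hochberg adjustment over 14, and shares carry 95% Wilson intervals. Motifs 1, 6 and 7 are core promoter elements searched by their consensus. The letters searched for the DRE were TATCGATA and, within it, ATCGAT. E-boxes were CACGTG or CAGCTG. The TATA box was TATAAA and the homeodomain letters were TAATTA. The GAGA repeat was GAGAG. The DM-domain sites were ACAATGT or ACATTGT, counted together, with TGTATCA counted apart. The CA repeat was CACACACA and the AT-rich letters were TTAAAA.

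Genes were named by rule: the 20 strongest summits in both top lists, the 4 strongest of each of 18 gene lists, the 5 smallest and 5 largest spacings, the 5 strongest absent from either replicate, and pairs with both genes on a list. Some summits that the rule names are not reported here. No pair had 3 or more summits and no member lay on chromosome 4. Members and lists were chosen with earlier results of these data known. Gene lists were set by symbol or biotype and are described by counts, with no test. Alternatives changed the start distance, gene set, list strength, replicate, counting, sharing criterion, comparison class and window. Scripts were tested on simulated data. The software was Python 3.11.15 with scipy 1.17.1, numpy 2.4.6, matplotlib 3.10.9 and pandas 2.3.3.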

Additional observations from a re-analysis of the deposited data

How the results depend on the processing

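Left out in turn, the replicates moved the odds ratio for presence among the strongest peaks from 0.459 to 2.06, so that its direction depended on the list it was counted from. It was 1.09 with starts counted to 250 bp and 0.837 with 50% reciprocal overlap, against 0.691 as reported. Presence in both full lists kept its direction and call in all 10 alternatives run, and the peak share of genes in all 8. The share in the strongest 25% of the list ranged from 1.14 to 2.07 (odds ratio) without a replicate and kept its call in the other alternatives. The cause of these changes was not tested.

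The median spacing was 255 bp with starts to 250 bp, 329.5 bp to 1000 bp, 303 bp with protein-coding genes, 288 bp in the stronger 50% of peaks, 298 bp with 1 summit per pair, and 288.5 to 289.5 bp without a replicate. Summits between the starts made up 80.6% with starts to 1000 bp, 86.1% with protein-coding genes, 81.7% in the stronger 50% of peaks and 81.4% to 82.8% without a replicate. The difference in median GC content, divergent minus unidirectional, was -4.95 percentage points with starts to 250 bp, -0.990 to 1000 bp, and -2.97 to -1.98 without a replicate.

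The number of motifs passing was 0 with starts to 250 bp, with protein-coding genes, in the stronger 50% of peaks and with 1 summit per pair. It was 6 with starts to 1000 bp, 9 against peaks outside promoters, 7 in windows reaching 100 bp to either side, and 3 to 7 without a replicate. Odds ratios of motifs that had not passed turned in 8 cases. Motif 1 was at 0.832 with starts to 250 bp, and the joint DM-domain site at 0.830 there, 0.915 with starts to 1000 bp and 0.651 against peaks outside promoters. CACGTG was at 1.80 against peaks outside promoters and TGTATCA at 0.899 in the wider windows. Without a replicate, Motif 7 ranged from 0.944 to 2.09 and CAGCTG from 0.943 to 1.40.

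No paired analysis was possible because both libraries belong to 1 group. With 2 libraries and no counts of reads, the depth behind a peak or an absent entry is unknown.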
